A study of Mus musculus with 24 samples.

Results

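The sterol arm of cholesterol synthesis is the chain of enzymes that closes oxidised squalene into lanosterol and then trims lanosterol, step by step, to cholesterol. Its 9 enzymes described here, Lss, Cyp51, Tm7sf2, Msmo1, Nsdhl, Hsd17b7, Ebp, Sc5d and Dhcr7, were taken by gene symbol from a table of 27368 genes read in 24 mouse tumours. All 9 passed the filter on low counts, among 16560 genes tested. The set was selected on the enzymes' pathway with earlier results of these libraries known, among them a lower level of Cyp51 in tumours coded as irradiated, so the radiation comparison is given as a description: the calls made at the adjusted threshold are counted, nothing is read from them, and no p-value of a single enzyme is printed for it.

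The tumours grew under the skin of female C3H mice, 6 to 8 weeks old, from about 1000000 SCC7 cells, a mouse squamous carcinoma line, in a study of miR-21-5p, end joining and radiation resistance. The cells had first received either a vector with no insert (NC) or overexpression of miR-21-5p (OE). At about 300 mm3 the mice entered sham treatment, X-rays to the tumour (IR, 8 Gy a day for 3 days), olaparib, or IR with olaparib. Olaparib, an inhibitor of the PARP enzymes that sense DNA breaks, was injected into the peritoneum at 50 mg/kg, 2 h ahead of each X-ray dose and once more on the day after the last. These 2 kinds of cells and 4 treatments make 8 groups of 3 tumours, all from 1 cell line in 1 mouse strain, and nothing in the labels says how the microRNA was expressed. RNA came from whole tumours, so fewer cells of a type and less RNA per cell cannot be told apart, and p-values measure the spread between these tumours.

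Groups were read from the letters of each tumour's ID, in which E stands for OE, S for sham, I for IR and O for olaparib, a key taken from the labels that print those letters beside a treatment. The written treatment of the same tumours names another group for 19 of 24 of them. It differs from the letters in radiation status for 8, in olaparib for 16 and in the kind of cells for 8. Both readings cannot be right, and every group name below is the one coded by the letters unless the written label is named. Library totals ran from 37099055 to 40004502 counts per tumour. Defining markers of squamous cells were at 0 in some tumours of this squamous line, Krt5 in 5 and Krt14 and Trp63 in 1 each.

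Some tumours stood apart and are followed through the results. S-761 (NC sham) had the highest summed markers of macrophages and T cells among the 12 unirradiated tumours, I-732 (NC IR) the highest of muscle among all 24, and EIO-744 (OE IR with olaparib) the highest of fibroblasts, endothelium and fat. I-739 (NC IR) and EI-752 (OE IR) are irradiated by the letters, yet had the highest Cyp51 and the highest Mki67, a gene of dividing cells, among the 12 irradiated tumours.

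Cells make sterols when the membrane of the endoplasmic reticulum runs short of them. SREBP proteins, made from Srebf2 and Srebf1, are then carried by Scap to the Golgi, cut free and moved to the nucleus, where they bind sterol regulatory elements (SREs) beside CCAAT and GC boxes in the promoters of nearly every enzyme of the pathway. When sterols are plentiful, Insig proteins hold the complex back, and oxysterols turn on the LXR receptors, which raise genes that export cholesterol. Dividing tumour cells draw on the pathway for new membrane.

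The promoters of 4 members are shown because of where they stand in the results: Cyp51 differed most between irradiated and other tumours, Msmo1 came next, Hsd17b7 shares with Cyp51 a variant of the SRE, and Ebp was not called lower on average over the strata. Each line is the 250 bases before the annotated start, from RefSeq on GRCm38.p6, read in the direction of the gene. Capitals mark the CCAAT box on either strand (CCAAT or ATTGG) and the SRE variant TCACCTCA.
Cyp51, chr5:4104698-4104947, minus strand: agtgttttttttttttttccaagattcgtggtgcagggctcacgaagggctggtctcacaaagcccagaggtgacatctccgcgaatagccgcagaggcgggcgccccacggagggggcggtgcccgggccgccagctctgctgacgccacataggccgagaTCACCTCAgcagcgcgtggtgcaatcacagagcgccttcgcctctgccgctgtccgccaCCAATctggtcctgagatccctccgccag
Msmo1, chr8:64733579-64733828, minus strand: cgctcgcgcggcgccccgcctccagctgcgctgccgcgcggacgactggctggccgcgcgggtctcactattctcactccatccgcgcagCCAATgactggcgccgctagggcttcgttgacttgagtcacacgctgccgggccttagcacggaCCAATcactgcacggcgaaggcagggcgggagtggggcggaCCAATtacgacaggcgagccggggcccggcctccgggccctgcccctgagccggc
Hsd17b7, chr1:169969206-169969455, minus strand: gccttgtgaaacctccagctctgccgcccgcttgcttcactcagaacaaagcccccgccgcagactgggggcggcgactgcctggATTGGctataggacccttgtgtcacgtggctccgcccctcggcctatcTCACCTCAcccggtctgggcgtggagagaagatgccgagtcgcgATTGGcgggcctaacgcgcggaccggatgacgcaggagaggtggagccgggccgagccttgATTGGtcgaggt
Ebp, chrX:8193513-8193762, minus strand: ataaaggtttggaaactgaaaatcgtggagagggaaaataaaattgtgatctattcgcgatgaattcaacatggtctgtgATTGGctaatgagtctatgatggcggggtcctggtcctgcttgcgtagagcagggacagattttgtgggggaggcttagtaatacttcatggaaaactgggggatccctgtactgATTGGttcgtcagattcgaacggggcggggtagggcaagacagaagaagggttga

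Over windows of 300 bases, from 250 before to 50 after the start, all 9 members matched an entry, and Dhcr7 had 3 windows. CCAAT was present on 1 strand or the other in 9 of 9 members, against 42.3% of 17492 protein-coding genes, and the GC box GGGCGG in 9 of 9, against 49.2%. The palindrome CACGTG occurred in Hsd17b7, Sc5d and Dhcr7, against 8.91% of genes. The SRE core TCACNCCAC was in 0 of 9, against 1.41%, which says only that these letters are not in these windows. TCACCTCA, searched for after the windows had been read, was in Cyp51 and Hsd17b7, against 1.25%. The p53 half-site, a motif that reads the same on both strands, was in Nsdhl, Sc5d and Dhcr7, against 8.54% of genes. The final bases of the Nsdhl and Sc5d windows were in 0 of those genes' GENCODE transcripts, so these 2 windows rest on RefSeq's start alone. Ebp, which was called lower in 1 of the 4 strata and not on average, holds 2 CCAAT boxes, and Msmo1 holds 3. A match is a description of the letters, and binding was not measured.

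Irradiated tumours had lower levels of most of the arm. Averaged over the 4 strata of cells and olaparib, 7 of the 9 enzymes were called lower by edgeR's quasi-likelihood test (adjusted p under 0.05), where 17.5% of all tested genes were called lower; Tm7sf2 and Ebp were not called. The median log2 fold change was -0.97 over the 9 members and 0.04 over all genes. All 12 irradiated tumours lay below all 12 others for Lss, Cyp51, Nsdhl and Sc5d, which 0.429% of genes did. The contrast was among the results known when the set was drawn up, so nothing is read from these counts.

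**Figure D1:**
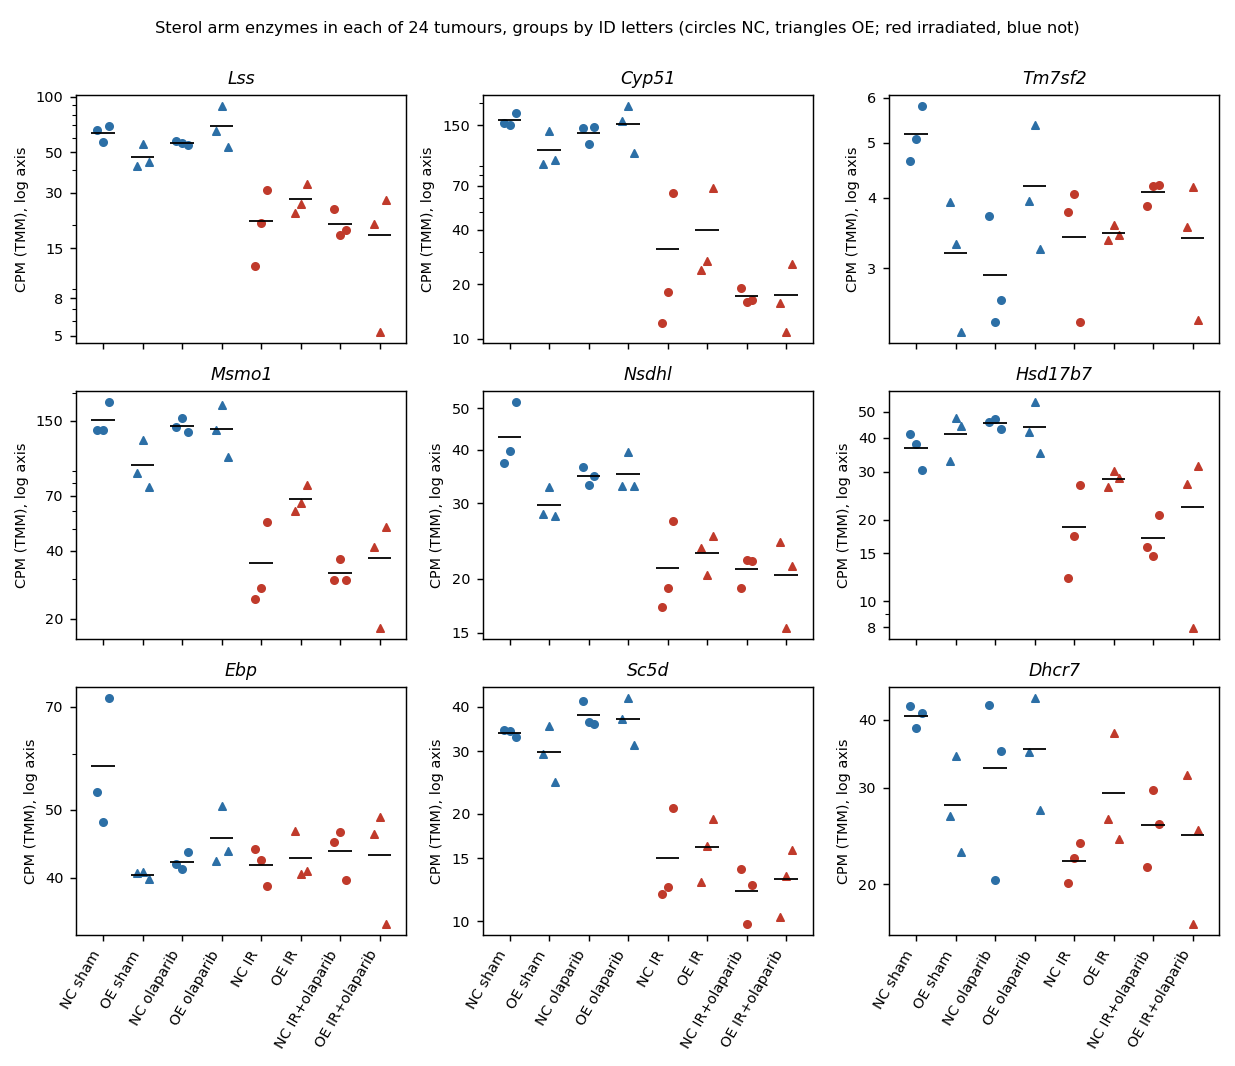
Level of each enzyme (TMM-scaled CPM, log axis) in each of the 24 tumours, by group as coded in the ID letters. Points are tumours, circles NC and triangles OE, red irradiated and blue not, and bars are group means; the irradiated tumours lie below all others for Lss, Cyp51, Nsdhl and Sc5d and overlap them for the rest.

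Lss (Entrez gene 16987, chr10:76531565-76557139), lanosterol synthase, makes the first sterol by folding oxidised squalene into rings; positions here are RefSeq's on GRCm38.p6. Its level, in CPM (reads per 1000000 counted, after TMM scaling), was lowest 41.8, median 56.2 and highest 89.4 in the 12 unirradiated tumours, and 5.23, 21.9 and 33.6 in the 12 irradiated ones. The 2 sets did not overlap, and the lowest value, in EIO-744, was far under the rest of its group, at 20.3 and 27.5. The fitted log2 fold change was -1.45 ± 0.20 (SE), a ratio of mean levels of 2.72.

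Cyp51 (Entrez gene 13121, chr5:4080674-4104697), a cytochrome P450, removes the first methyl group from lanosterol and is the target of azole drugs in fungi. It had the largest difference of the 9, with rank 17 from the lowest of 16560 fitted log2 fold changes. NC sham tumours read 155.3, 150.7 and 175.2 CPM, NC olaparib 145.6, 118.0 and 147.3, OE sham 92.4, 139.7 and 96.2, and OE olaparib 158.4, 192.3 and 106.1. NC IR read 12.3, 18.1 and 63.8, NC IR with olaparib 19.1, 16.0 and 16.4, OE IR 23.9, 27.0 and 68.2, and OE IR with olaparib 15.8, 10.9 and 25.8. Of the irradiated tumours, I-739 and EI-752 lay apart at 63.8 and 68.2 and the rest were at 27.0 or less, and every unirradiated tumour was above both. The fitted log2 fold change was -2.48 ± 0.25, the ratio of means 5.28, and without I-739 and EI-752, left out after their values were seen, it was -2.91.

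Ordered by mean, Cyp51 went from NC IR with olaparib (17.2 ± 1.66 CPM, SD, n = 3) through OE IR with olaparib (17.5 ± 7.61), NC IR (31.4 ± 28.2) and OE IR (39.7 ± 24.7) to OE sham (109 ± 26.3), NC olaparib (137 ± 16.4), OE olaparib (152 ± 43.4) and NC sham (160 ± 13.0). Neighbours in that order overlapped, except OE IR and OE sham, where the irradiated and unirradiated groups meet. For Lss, Nsdhl and Sc5d the 4 irradiated groups were likewise the lowest 4 and OE sham the next, with neighbours that overlapped, except at that step and, for Nsdhl, between OE sham and NC olaparib.

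Tm7sf2 (Entrez gene 73166, chr19:6062821-6067850) encodes a sterol reductase that acts after Cyp51, a step that Lbr, a protein of the inner nuclear membrane, also performs. Tm7sf2 was the lowest member, at 2.31, 3.82 and 5.81 CPM (lowest, median, highest) in unirradiated and 2.41, 3.67 and 4.21 in irradiated tumours, with a log2 fold change of -0.08 ± 0.14. The 2 sets overlapped over most of their range, and NC sham tumours, at 4.64 to 5.81, were the highest group. Lbr, from the list of other enzymes of the arm, stood at 74.8 to 116.5 CPM in unirradiated and 40.1 to 79.8 in irradiated tumours, with a log2 fold change of -0.91 ± 0.09.

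Msmo1, Nsdhl and Hsd17b7 work as a unit that strips the remaining pair of methyl groups from the ring. Msmo1 (Entrez gene 66234, chr8:64718123-64733578), the oxidase of that unit, read 76.6, 136 and 182 CPM in unirradiated and 18.1, 39.1 and 77.9 in irradiated tumours, a log2 fold change of -1.67 ± 0.16. EI-752 at 77.9 was above the lowest unirradiated one, ES-741 at 76.6, and the other 11 irradiated tumours lay below all unirradiated tumours. The OE IR tumours read 60.1, 65.0 and 77.9, and those of NC IR 24.5, 27.3 and 53.6.

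Nsdhl (Entrez gene 18194, chrX:72918521-72958528) is the decarboxylating dehydrogenase of the unit. It read 28.0, 33.9 and 51.8 CPM in unirradiated and 15.4, 21.7 and 27.3 in irradiated tumours, with no overlap and a log2 fold change of -0.72 ± 0.09. Hsd17b7 (Entrez gene 15490, chr1:169949535-169969242), its ketone reductase, read 30.4, 42.6 and 54.4 in unirradiated and 7.95, 23.6 and 31.5 in irradiated tumours, a log2 fold change of -0.97 ± 0.17. Its sets overlapped by 1 tumour on each side, since EIO-749 at 31.5 was above S-761 at 30.4. Without S-761, I-732 and EIO-744 the value was -0.85 for Hsd17b7 and -0.62 for Nsdhl.

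Ebp (Entrez gene 13595, chrX:8185329-8193512) moves a double bond within the ring, and Sc5d (Entrez gene 235293, chr9:42251592-42264300) and Dhcr7 (Entrez gene 13360, chr7:143823167-143848410) finish the ring of cholesterol. Ebp read 39.9, 42.9 and 72.1 CPM in unirradiated and 34.4, 43.2 and 48.7 in irradiated tumours, a log2 fold change of -0.10 ± 0.07. Its medians were close and its sets overlapped, with the 2 highest values in NC sham tumours, S-761 at 72.1 and S-758 at 53.03. Sc5d read 24.6, 34.9 and 42.4 in unirradiated and 9.81, 13.2 and 20.8 in irradiated tumours, without overlap, a log2 fold change of -1.29 ± 0.11. Dhcr7, the enzyme deficient in Smith-Lemli-Opitz syndrome, read 20.4, 34.9 and 43.8 against 16.9, 24.6 and 37.7, a log2 fold change of -0.42 ± 0.13, and its sets overlapped: only 2 irradiated tumours lay below every unirradiated one. Among the 7 called, Dhcr7 had the smallest difference. In a fit of only the 16 tumours whose 2 labels agree on radiation, with 14668 genes tested, it was -0.34 and no longer called. The share of all genes called in that smaller fit is not given here, so nothing is read from the lost call.

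Divided by exon length, so that enzymes can be set side by side, Msmo1 was the most abundant member in unirradiated tumours, at 64.8 ± 15.5 CPM per kilobase (SD, n = 12). Cyp51 followed at 35.6 ± 7.88 and Ebp at 26.6 ± 5.23. In irradiated tumours Ebp was the highest, at 24.6 ± 2.36 (n = 12), then Msmo1 at 21.0 ± 9.07. Cyp51 stood at 6.73 ± 4.87 there, below Nsdhl at 9.88 ± 1.59 and Dhcr7 at 7.68 ± 1.68. Tm7sf2 was the lowest member in both, at 2.28 ± 0.685 and 2.12 ± 0.367, while Lbr, which performs the same step, stood at 27.9 and 14.9.

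The same contrast was read within each of the 4 strata, 3 tumours against 3. In NC tumours 7 members were called lower by edgeR, beside 5.4% of all genes, among them Ebp at -0.47 ± 0.14 (95% interval -0.77 to -0.17), while Tm7sf2, not called, stood at -0.60 ± 0.28. In NC tumours given olaparib 3 were called lower, beside 0.634%. In OE tumours given olaparib 5 were called lower, beside 1.37%. In OE tumours without olaparib 0 were called lower by edgeR, beside 0.0664% of genes, with 2 at an unadjusted p under 0.05 and 2 by DESeq2. Of all 16560 genes, 2447 were at that unadjusted level in that stratum and 644 were called by DESeq2, in either direction. Cyp51 had log2 fold changes of -2.35 ± 0.50 in NC, -2.99 ± 0.51 in NC with olaparib, -1.46 ± 0.48 in OE and -3.12 ± 0.51 in OE with olaparib. Msmo1 had -2.11 ± 0.33, -2.16 ± 0.33, -0.51 ± 0.32 and -1.91 ± 0.33 in the same order. The counts within strata of 3 against 3 moved with single tumours, also with those of other groups, which share the estimate of the spread. In NC the count was 0 without S-761 or I-732, 3 without I-736 and 4 without S-758. In NC with olaparib it was 0 without IO-731, 1 without IO-726, 5 without EIO-749 and 6 without EIO-744, I-739 or I-732. In OE with olaparib it was 2 without EO-703 and 3 without EO-701 or EO-762, and in OE it was 2 without I-739 and 1 without EIO-744. The share of all genes called lower moved too when single tumours were left out, from 0.0118% to 12.6% in NC, 0.00588% to 6.28% in NC with olaparib, 0% to 0.835% in OE and 0.0703% to 6.15% in OE with olaparib.

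**Figure D2:**
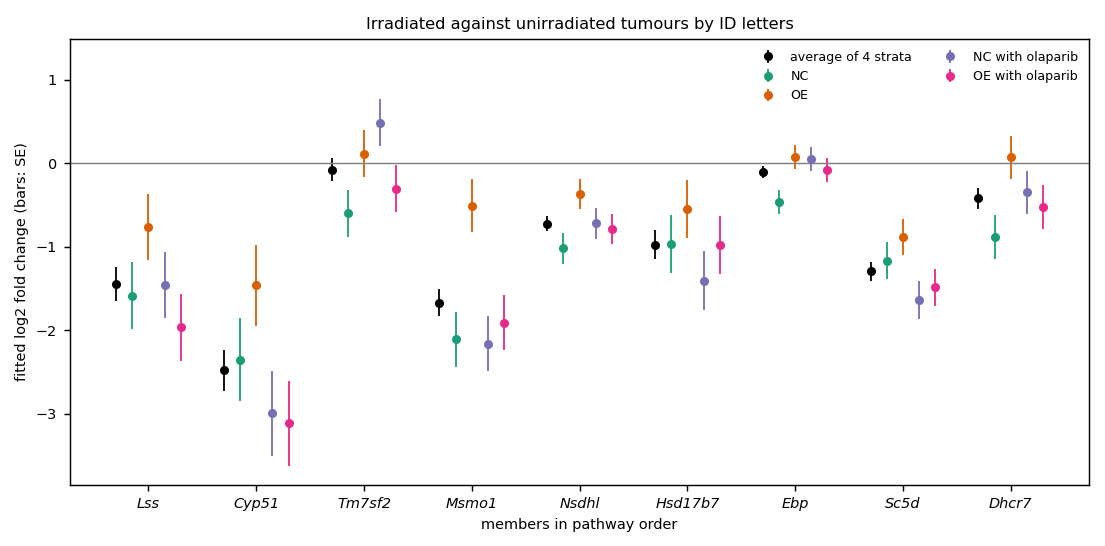
Fitted log2 fold change of irradiated against unirradiated tumours for each enzyme, in pathway order, averaged over the 4 strata and within each stratum of 3 against 3 tumours; bars are standard errors. Cyp51 has the largest average difference, and the OE stratum without olaparib is nearest to 0 for 8 of the 9 enzymes. Tm7sf2, Ebp and Dhcr7 lie on both sides of 0, Dhcr7 through 0.07 in OE, and Ebp was called lower only in NC, at -0.47.

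Whether the radiation difference itself changed with cells or olaparib was tested by interaction terms. For radiation by cells, 0 members were called by edgeR, beside 0.00604% of all genes, with 1 at an unadjusted p under 0.05 and 0 by DESeq2. That 1 was Msmo1, with a difference of 0.93 ± 0.32 on the log2 scale (95% interval 0.26 to 1.59, adjusted p = 0.29 by edgeR). Without EIO-744 it was 1.11 with an adjusted p of 0.029 by edgeR, in 1 of the fits that each left out a tumour. The share of all genes called in that fit is not given here, so nothing is read from it. Leaving out EIO-744 also raised the share of all genes called lower for radiation in NC, from 5.4% to 12.6%. For radiation by olaparib, 0 members were called, beside 0% of genes, with 3 at an unadjusted p under 0.05 and 0 by DESeq2. These were Cyp51 at -1.15 ± 0.47 (95% interval -2.14 to -0.16), Msmo1 at -0.73 ± 0.32 and Sc5d at -0.54 ± 0.22, each with an adjusted p of 0.99 by edgeR. For olaparib by cells, 0 were called, beside 0% of genes, with 0 at an unadjusted p under 0.05 and 0 by DESeq2, and the member intervals ran from -0.95 to 1.19. Of all 16560 genes, 1882, 588 and 1031 were at an unadjusted p under 0.05 for these 3 interactions, in the order given. DESeq2 called 236, 7 and 6 genes.

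Olaparib itself, averaged over the 4 strata of cells and radiation, left 0 members called by edgeR, beside 0% of all genes, with 0 at an unadjusted p under 0.05 and 0 by DESeq2. Cyp51 had the lowest value, -0.45 ± 0.24 (95% interval -0.95 to 0.05, adjusted p = 0.65 by edgeR). The other 8 lay between -0.14 and -0.0049, and their intervals reached from -0.49 to 0.34. Within NC, 0 members were called beside 0% of genes, with 2 at an unadjusted p under 0.05, Tm7sf2 at -0.82 ± 0.28 and Ebp at -0.45 ± 0.14, both with an adjusted p of 0.42 by edgeR. Within OE, 0 were called beside 0%, with 0 at an unadjusted p under 0.05. In irradiated NC, 0 were called beside 0%, with 0 at an unadjusted p under 0.05. In irradiated OE, 0 were called beside 0%, with 2 at an unadjusted p under 0.05, Cyp51 at -1.18 ± 0.48 and Msmo1 at -0.87 ± 0.32. Without EIO-749, 1 member was called there. The share of all genes called in that fit is not given here, so nothing is read from it. DESeq2 called 0 members in each of these 4 strata.

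OE tumours were compared with NC tumours over the 4 treatments. The comparison left 0 members called by edgeR, beside 0.453% of genes, with 0 at an unadjusted p under 0.05 and 0 by DESeq2. Hsd17b7 had the highest value, 0.27 ± 0.17 (95% interval -0.09 to 0.64, adjusted p = 0.46 by edgeR), and Nsdhl the lowest, -0.11 ± 0.09. In sham tumours 8 of the 9 values were below 0 and 0 were called, beside 0% of genes, with 3 at an unadjusted p under 0.05 and 1, Ebp, by DESeq2. Ebp was 53.03, 47.9 and 72.1 CPM in NC sham and 40.7, 40.7 and 39.9 in OE sham, with a log2 fold change of -0.51 ± 0.14 (adjusted p = 0.15 by edgeR, 0.034 by DESeq2). The others at an unadjusted p under 0.05 were Nsdhl, at -0.53 ± 0.18, and Tm7sf2, at -0.70 ± 0.28. Of all 16560 genes, 2065 were at that unadjusted level in sham tumours and 2565 over the 4 treatments. DESeq2 called 376 and 628 genes, in that order.

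Under IR all 9 values of OE against NC were above 0 and 0 were called, beside 0.0845% of genes, with 1 at an unadjusted p under 0.05 and 0 by DESeq2. That 1 was Msmo1, at 0.94 ± 0.32 (95% interval 0.27 to 1.62, adjusted p = 0.15 by edgeR). Under olaparib 0 were called beside 0%, and under IR with olaparib 0 beside 0%, with 0 at an unadjusted p under 0.05 and 0 by DESeq2 in both. Of all 16560 genes, 3092 were at an unadjusted p under 0.05 under IR, 590 under olaparib and 1669 under IR with olaparib. DESeq2 called 794, 7 and 138 genes, in that order. Without EIO-744 or without I-739, 1 member was called under IR, but the shares of all genes called in those fits are not given here, so nothing is read from it. In sham tumours the mean of Msmo1 was lower in OE than in NC, 96.2 ± 24.8 against 152 ± 26.3 CPM (SD, n = 3), and under IR it was higher, 67.7 ± 9.18 against 35.1 ± 16.0.

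**Figure D3:**
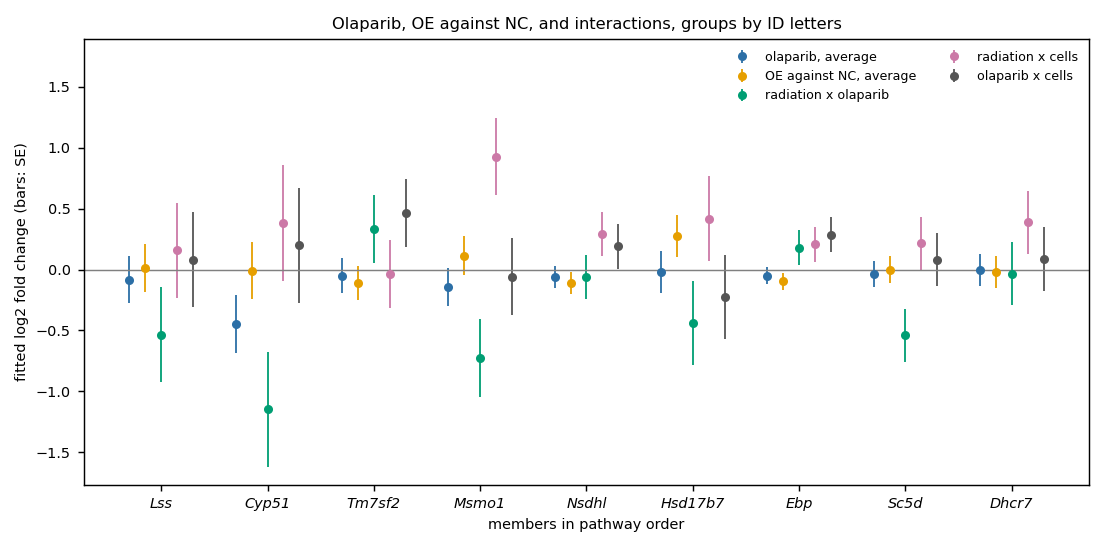
Fitted log2 differences of each enzyme for olaparib, for OE against NC, and for the 3 interactions, all over the 24 tumours by ID letters; bars are standard errors. No value passed the adjusted threshold, and the interaction terms, being differences of differences, have the widest bars, with Cyp51 lowest at -1.15 for radiation by olaparib and Msmo1 highest at 0.93 for radiation by cells.

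Since the OE cells are labelled as overexpressing a microRNA, a class of RNA that represses transcripts with sites for its seed, the 3′ UTRs of the members were searched. The mature sequence, from RefSeq on GRCm38.p6, is shown with its seed, bases 2 to 8, in capitals, and below it the 1 match among the members, in Sc5d, with the bases that pair to the seed in capitals.
mmu-miR-21a-5p, chr11:86584120-86584141, minus strand: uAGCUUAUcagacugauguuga
Sc5d, site at position 264 of the 3′ UTR: acgatagaaaATAAGCTactcaagaag
The site ATAAGCT was in 1 of 9 members and in 7.13% of 20987 genes with a 3′ UTR in GENCODE. The Sc5d 3′ UTR has 3747 bases, against a median of 954 over genes. Sc5d read 34.3, 34.2 and 33.0 CPM in NC sham and 29.5, 35.4 and 24.6 in OE sham, ranges that overlap, and its log2 fold change of OE against NC over the 4 treatments was -0.00046 ± 0.11 (95% interval -0.23 to 0.23, adjusted p = 1.00 by edgeR). The level of the microRNA itself was not measured by these libraries.

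The other genes of the pathway come from lists chosen with earlier results known, and their counts share the contrast of the members. Before the arm, 10 of 10 enzymes of the mevalonate part were called lower in irradiated tumours, with a median log2 fold change of -1.66, beside 17.5% of all genes called lower and 21.7% called higher. These 2 shares are the background of each list count of this contrast that follows. Fdps, which makes farnesyl diphosphate, stood at -2.41 ± 0.21, and Sqle, which oxidises squalene, at -2.29 ± 0.29.

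Of 7 genes that sense sterols, 3 were called lower: Insig1 at -1.68 ± 0.11, Srebf2 at -1.45 ± 0.17 and Srebf1 at -0.31 ± 0.08. Scap, the carrier, stood at 0.06 ± 0.05. Insig1 read 20.6 to 38.2 CPM in all 12 irradiated tumours and 55.5 to 135.1 in the others. That irradiated range includes I-739 and EI-752, which were high for Cyp51 and read 34.2 and 31.2 for Insig1. Of 6 tested genes of uptake and transport 3 were lower, among them Stard4, a carrier of sterols between membranes, at -2.08 ± 0.22, and 2 were higher, among them Npc2 at 0.66 ± 0.15. Of 7 genes of export and storage 6 were called higher, as were 21.7% of all genes. Apoe at 1.98 ± 0.37 and Abca1, the cholesterol exporter, at 1.91 ± 0.24, led with Abcg1. Nr1h3, an LXR receptor, stood at 1.63 ± 0.25. In the oxysterol branch 3 of 5 were higher, with Cyp7b1, an oxysterol hydroxylase, at 3.66 ± 0.61. Of the 5 electron donors that enzymes such as Cyp51, Msmo1 and Sc5d draw on, Cyb5a was called higher, at 0.53 ± 0.20, and Cyb5b lower, at -0.48 ± 0.12, while Por, the reductase that feeds Cyp51, stood at 0.18 ± 0.10.

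**Figure D4:**
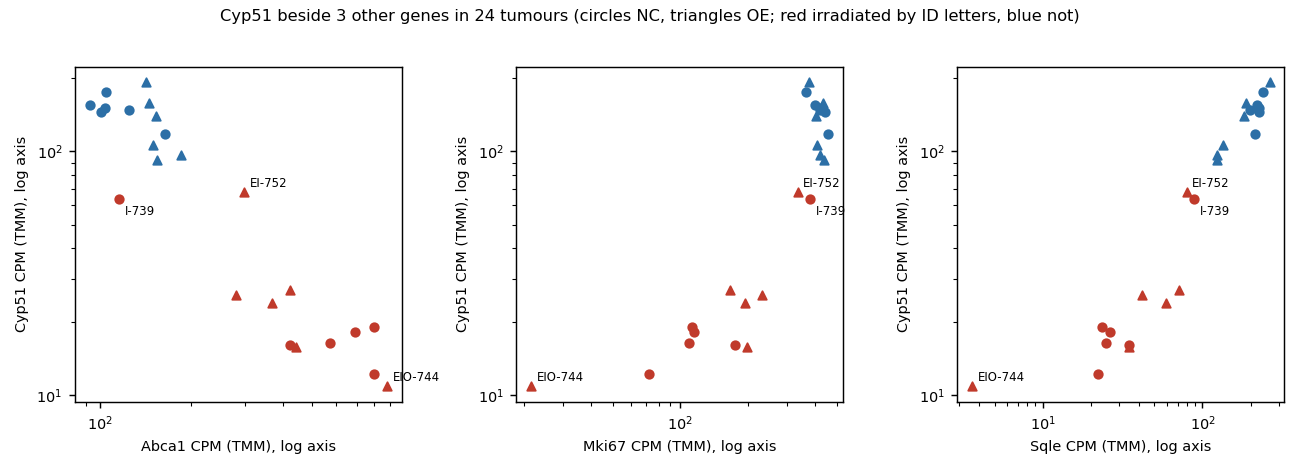
Cyp51 in each of 24 tumours against Abca1, a cholesterol exporter, Mki67, a gene of dividing cells, and Sqle, the enzyme before Lss, all in TMM-scaled CPM on log axes, with circles NC, triangles OE, red irradiated by the ID letters and blue not. I-739 and EI-752 sit between the 2 clouds for Cyp51, near the unirradiated tumours for Mki67, and at 115.7 and 298.0 CPM for Abca1; EIO-744 is at the far end of each plot.

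Within groups, the members did not all move together from tumour to tumour. After each group's mean was subtracted from log2 CPM, the median correlation of a member with the other 8, over 24 tumours, was 0.67 for Cyp51, 0.65 for Msmo1, 0.60 for Lss, 0.57 for Nsdhl and 0.56 for Hsd17b7. It was lower for Dhcr7 and Sc5d, at 0.38 and 0.34, and negative for Tm7sf2 and Ebp, at -0.20 and -0.24. These are descriptions over tumours that share libraries, depth and composition. In the 12 irradiated tumours Tm7sf2 and Ebp stood at -0.70 and -0.62, and in the 12 others at 0.58 and 0.41. EIO-744 is among those irradiated tumours. It had their lowest Lss, Cyp51, Msmo1 and Hsd17b7 and their highest Ebp, at 48.7 CPM. Correlations without it are not given here. The mean of the 9 standardised members was most like Acat2, which joins acetyl units at the head of the pathway (r = 0.92), and Fdps (0.90), the highest over the 24 tumours. Within the 12 unirradiated tumours they ranked 2 and 1 (0.94 and 0.97), but within the 12 irradiated ones, where they stood at 0.92 and 0.93, they ranked only 506 and 403. The rest of the 10 most alike were Tmem163 (0.87), Haus5 and Pola2 (0.85), Pcyt2, Phf21b and Lbr (0.84), Wdr90 (0.83) and Rmi2 (0.82). Mki67 had r = 0.68 over the 24 tumours, 0.96 within the irradiated 12, EIO-744 included, and -0.66 within the others.

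Other measures were read in the same comparison, and their part in the result was not tested. Their counts stand against the same background, 17.5% of all genes called lower and 21.7% called higher. Counts of 3 of 10 called higher are near that share. Of 10 proliferation genes 9 were called lower (Mki67 -1.27 ± 0.29), and their summed level ran from 1990 to 2521 CPM in unirradiated and from 146 to 2025 in irradiated tumours, with EIO-744 lowest and I-739 highest. Of 10 targets of p53 10 were higher, with Cdkn1a, a cell cycle inhibitor, at 1.36 ± 0.12. Macrophage markers were higher for 7 of 10, summing to 4557 to 12140 CPM in unirradiated and 2603 to 17297 in irradiated tumours, where I-739 was lowest. Neutrophil markers were higher for 8 of 9 (22.1 to 66.3 against 30.3 to 497), with 497 in EIO-744 and 171 in I-736, the next highest. T cell markers were lower for 6 of 9 (47.8 to 368 against 26.6 to 174). Squamous markers were higher for 3 of 10 (204 to 374 against 161 to 591). Fibroblast markers were higher for 4 of 10 (3141 to 6216 against 4036 to 130108), endothelial markers for 3 of 10 (200 to 338 against 239 to 1760) and adipocyte markers for 6 of 10 (71.4 to 392 against 50.4 to 1712), each with its highest sum in EIO-744. Muscle markers were higher for 7 of 10 (22.4 to 1477 against 45.0 to 15376, highest in O-724 and I-732). Sebaceous markers, of a skin gland rich in lipid synthesis, were higher for 4 of 8 (108 to 167 against 140 to 527). Their highest sum was also in EIO-744, with IO-728 next at 285. Their defining genes Scd3, Awat1 and Mc5r were at 0 in 5, 16 and 7 tumours.

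Without S-761, I-732 and EIO-744, a choice made after seeing the data, 7 members were again called lower, beside 18.6% of all genes, with log2 fold changes of -2.31 for Cyp51, -1.51 for Msmo1, -1.26 for Lss, -1.27 for Sc5d and -0.36 for Dhcr7. In the remaining tumours 17% of all genes were called higher. In other lists there, macrophage markers were called higher for 7 of 10, neutrophil markers for 6 of 9, squamous markers for 4 of 10 and sebaceous markers for 2 of 8. T cell markers were called lower for 3 of 9. With so few genes, the sebaceous and T cell counts are not set apart from the shares of 17% and 18.6%. Proliferation genes were lower for 10 of 10 and targets of p53 higher for 10 of 10. Fibroblast and endothelial markers were each lower for 2 of 10 and higher for 2 of 10, adipocyte markers were higher for 1 of 10, and 0 of 10 muscle markers were called by edgeR, with 1 at an unadjusted p under 0.05. The share of all genes at that unadjusted level is not given here. Leaving out each tumour in turn gave 7 members called lower every time, beside 13.5% to 19.9% of all genes, with Cyp51 between -2.75 and -2.40.

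The comparison depends on which label is read. By the written treatments 0 members were called lower with radiation, beside 0.00604% of all genes, and Cyp51 stood at -0.99. Where letters and written label both say unirradiated, Cyp51 averaged 129 CPM (n = 8), and where only the written label says irradiated, 162 (n = 4). Where only the letters say irradiated, it averaged 33.5 (n = 4), and where both do, 22.9 (n = 8). Mean levels of Msmo1 were 126, 146, 56.4 and 36.2 in the same order, and those of Ebp 46.6, 46.1, 42.1 and 43.2. The set was drawn up knowing that Cyp51 is lower by the letters, so nothing is read from these levels about which label is right.

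**Figure D5:**
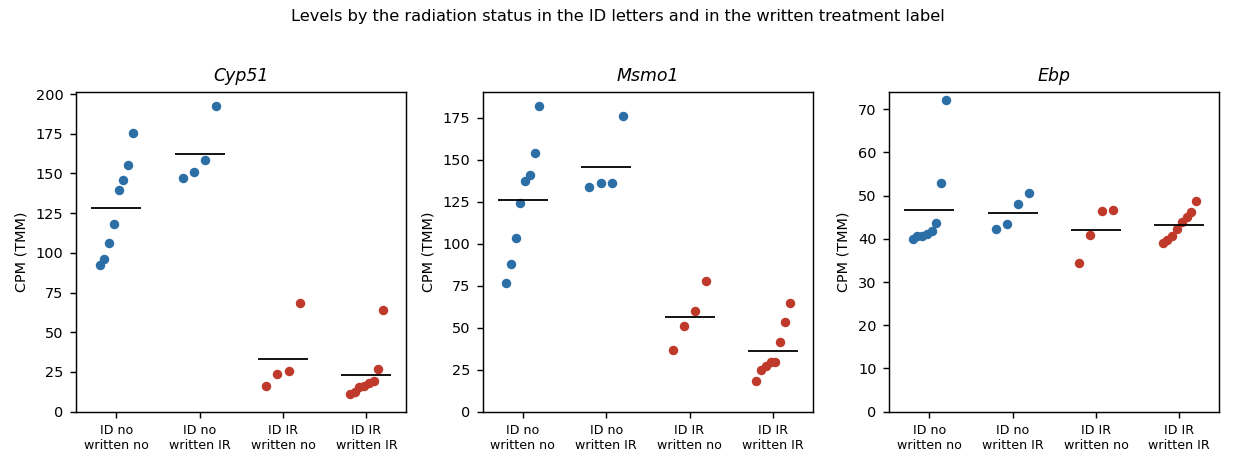
Cyp51, Msmo1 and Ebp (TMM-scaled CPM, axes from 0) in the 24 tumours split by the radiation status in the ID letters and in the written treatment; points are tumours and bars are means. Cyp51 averages 162 where only the written label says irradiated and 33.5 where only the letters do. The means of Ebp lie between 42.1 and 46.6 in the 4 sets, with single tumours from 34.4 to 72.1.

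The written labels also give calls that the letters do not. For OE against NC under IR, 7 members were called higher by edgeR, beside 12.7% of genes, with Cyp51 at 3.33 ± 0.77 (adjusted p = 0.013). In that reading the 3 OE IR tumours, EO-701, EO-703 and O-724, are all unirradiated by their letters, and the 3 NC IR tumours, I-732, I-736 and IO-726, are all irradiated. For olaparib by cells, 5 members were called, beside 14.8% of genes, with Cyp51 at -3.80 ± 0.73 (adjusted p = 0.0033 by edgeR).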

How the data were processed

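The deposited table holds raw read counts per gene for 24 tumours. The authors trimmed reads with fastp, aligned them to mm10 with HISAT2 and counted genes with HTSeq, per the submitters' processing notes; versions, annotation and strand setting are not given in the sources used here, so overlapping genes may share reads. Libraries were scaled by TMM and tested with edgeR 4.0.16 (R 4.3.3, limma 3.58.1), a quasi-likelihood fit with 1 mean per group over all 24 tumours, on the 16560 genes kept by filterByExpr. P-values were adjusted by Benjamini-Hochberg over all of them, with a threshold of 0.05. DESeq2 1.42.0 was an alternative, as were its size factors, no filter, the written labels, an additive model, the compared groups alone and leaving out each tumour. The fit was tested on simulated data. The lowest chi-square per gene between tumours of a group was 13.8 over 24 pairs, so none was counted as deposited more than once within a group. Pairs of tumours from different groups were not part of this check. The members, lists and tests were chosen with earlier results of these data known. All members are described; other genes were named as up to 4 per list with the largest radiation difference, a few fixed regulators, and the 10 genes with the highest within-group correlation. Exon lengths and 3′ UTRs came from GENCODE. Some genes of the lists are not reported here.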

Additional observations from a re-analysis of the deposited data

How the results depend on the processing

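The written labels changed the counts of members called most. With radiation they gave 0 members on average, 0 in NC, 0 in NC with olaparib and 0 in OE with olaparib. Beside these, 0.00604%, 0.0302%, 0% and 0% of all genes were called. They gave 7 for OE against NC under IR, beside 12.7%, and 5 for olaparib by cells, beside 14.8%. Without S-761, I-732 and EIO-744 the radiation counts were 1 in NC, 6 in NC with olaparib and 3 in OE. With the compared groups alone they were 0 in NC, 6 in NC with olaparib, 4 in OE and 0 in OE with olaparib. DESeq2 size factors gave 5 in NC with olaparib, and the DESeq2 test 6 there, 2 in OE and 1 for OE against NC in sham tumours. Of all 16560 genes, the DESeq2 test called 1428, 644 and 376 in the same order. Leaving out each tumour gave 7 to 7 members for radiation on average, 0 to 8 in NC, 0 to 6 in NC with olaparib, 0 to 2 in OE and 2 to 6 in OE with olaparib, and 0 to 1 for olaparib in irradiated OE, for OE against NC under IR and for radiation by cells. The other counts stayed within 1.5 times of the reported ones under the alternatives run for them. Shares of all genes called are not given here for the compared groups alone, for DESeq2 size factors, or within strata without S-761, I-732 and EIO-744. Nor are they given for the leave-one-out counts of 0 to 1. Those counts are therefore not read as changes in the members. The cause of these changes was not tested.

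Among log2 fold changes, Tm7sf2 with radiation turned to 0.13 by the written labels and 0.027 where both labels agree. By the written labels, olaparib turned to 0.032 for Nsdhl and 0.053 for Ebp, and OE against NC to 0.41 for Cyp51, 0.062 for Tm7sf2, 0.15 for Nsdhl, 0.25 for Sc5d and 0.33 for Dhcr7. By those labels radiation by olaparib turned to -0.063 for Tm7sf2, -0.17 for Ebp and 0.092 for Dhcr7, and olaparib by cells to -1.85 for Lss, -3.80 for Cyp51, -0.35 for Tm7sf2, -1.07 for Nsdhl, -0.26 for Ebp, -1.85 for Sc5d and -0.74 for Dhcr7. For Dhcr7, olaparib turned to 0.0012 with DESeq2 size factors, 0.0012 with the DESeq2 test and 0.027 without the 3 tumours, OE against NC to 0.0037 with no filter and 0.027 without the 3 tumours, and radiation by olaparib to 0.025 without them. OE against NC turned for Cyp51 to 0.0095 with no filter and 0.040 in the additive model, and for Sc5d to 0.011 with DESeq2 size factors, 0.010 with the DESeq2 test, 0.019 with no filter and 0.0020 in the additive model. Without the 3 tumours, olaparib by cells turned to 0.14 for Msmo1 and 0.17 for Hsd17b7. Leaving out each tumour in turn gave ranges on both sides of 0 for olaparib in Lss (-0.20 to 0.018), Tm7sf2 (-0.11 to 0.0032), Hsd17b7 (-0.11 to 0.069), Sc5d (-0.078 to 0.038) and Dhcr7 (-0.068 to 0.058). It did so for OE against NC in Lss (-0.094 to 0.13), Cyp51 (-0.15 to 0.26), Sc5d (-0.032 to 0.082) and Dhcr7 (-0.074 to 0.049). It did so for radiation by olaparib in Nsdhl (-0.16 to 0.056) and Dhcr7 (-0.16 to 0.092). It did so for radiation by cells in Lss (-0.092 to 0.40) and Tm7sf2 (-0.13 to 0.081). It did so for olaparib by cells in Lss (-0.16 to 0.32), Cyp51 (-0.33 to 0.52), Msmo1 (-0.28 to 0.12), Sc5d (-0.071 to 0.18) and Dhcr7 (-0.036 to 0.21). None of the 9 radiation values changed sign this way.

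Without a filter the median of all genes for radiation was 0.15 on the log2 scale, against 0.04. No paired analysis was possible because each tumour's number is its own and ties it to no tumour of another group. With 3 tumours a group, single strata limit precision: the 95% interval for radiation in NC was -1.40 to -0.63 for Nsdhl and -3.39 to -1.31 for Cyp51.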
